A study of Mus musculus with 3 samples.

Results

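The axonemal dynein heavy chains were examined in crosslink maps of Tra2β, a splicing regulator of the SR protein kind that binds RNA rich in GAA. All 3 libraries came from minced testes of adult wild type mice, which the labels give as total testes and the study's methods as germ cells released by mincing, and were made by iCLIP with a polyclonal antibody against endogenous Tra2β. In iCLIP ultraviolet light joins a protein to the RNA it touches, and the end of each cDNA marks the joined nucleotide, so that a crosslink here is 1 unique cDNA. The 10 genes were taken by name from the GENCODE mouse annotation (Dnah1, Dnah2, Dnah3, Dnah6, Dnah7a, Dnah7b, Dnah8, Dnah10, Dnah12 and Dnah17), out of 21770 protein-coding genes. Exons and introns were those of the canonical transcript of each gene, numbered from its start. The labels name no input, IgG or mutant library, so each comparison was made inside a library.

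Axonemal dynein heavy chains are the motor subunits of the arms that stand on the outer doublet microtubules of cilia and flagella. Each chain carries a ring of ATPase modules and a stalk that grips the next doublet, and the sliding it drives makes the sperm tail beat. Outer arms set the beat frequency and inner arms the shape of the beat. Dnah8 and Dnah17 encode outer arm chains of the sperm tail. Dnah2 and Dnah10 encode the chains of the inner arms with a pair of heads, and Dnah1, Dnah3, Dnah6, Dnah7a, Dnah7b and Dnah12 encode inner arm chains of the single-headed kind. Loss of several of these genes leaves sperm with short, coiled or immotile tails. The genes are transcribed strongly in male germ cells and have very long mRNAs built from many small exons.

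The libraries held 348033, 619571 and 488719 crosslinks in replicates 1, 2 and 3. Replicate 2 stood apart, because the median exon share over 4256 genes with at least 10 crosslinks in each library was 26.3% there and 35.1% and 43.8% in replicates 1 and 3. All 8 germ cell markers checked, such as Ddx4 and Prm2, had crosslinks in each library, 766, 558 and 1305 in sum. Of 3 genes checked for airway and ependymal tissue, whose ciliated cells build motile cilia from the same family, Mcidas and Scgb1a1 had none. Foxj1 had 9, 5 and 4. Markers of somatic testis cells were present, with 30, 61 and 39 crosslinks in sum for 4 Sertoli cell markers (Amh at 0) and 35, 28 and 50 for 4 Leydig cell markers. The liver genes Alb and Apoa2 had none.

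Together the 10 genes held 1713, 2744 and 2613 crosslinks in replicates 1, 2 and 3, or 0.490% ± 0.046 (SD, n = 3) of each library. All 10 had crosslinks in exons and in introns of every library. Exons held 883, 746 and 1633 of them. As a share of the family's crosslinks that was 51.5%, with 95% limits by the Clopper-Pearson method of 49.1 and 53.9, in replicate 1. Replicate 2 had 27.2% (limits 25.5 and 28.9), and replicate 3 had 62.5% (limits 60.6 and 64.4). Replicate 2 was thus the lowest library for this family, as it was for the median gene. The family fell further there, to 27.2% beside 26.3% for the median gene. In replicates 1 and 3 it lay well above the median gene, which had 35.1% and 43.8%. The family's share is pooled over its crosslinks, whereas the median is taken over genes. Dnah8 alone gave 47.0% and 49.9% of the family's exonic crosslinks in replicates 1 and 3. The 95% limits cover counting error only.

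Dnah8, the outer arm chain, had the highest level. The gene lies at chr17:30845909-31096339 on the plus strand (GRCm39) and has 93 exons, the most of the 10 genes, of which Dnah3 has the fewest (61). The exons of Dnah8 held 415, 269 and 815 crosslinks in replicates 1, 2 and 3, which was 71.5, 26.0 and 99.9 CPM per kb of exon (65.8 ± 37.3, SD, n = 3), where CPM scales the crosslinks of each library to the same total. It ranked 1 among the 10 genes in every library and held 44.3% ± 7.3 of all their exonic crosslinks. Its range lay above those of the other genes except Dnah12, whose highest value was 37.6. Dnah17, the other outer arm chain, had 14.99, 15.3 and 16.2 CPM per kb of exon (15.5 ± 0.650) and varied least between libraries.

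Among the inner arm chains Dnah12 was highest in exons, at 23.4, 6.71 and 37.6 CPM per kb in replicates 1, 2 and 3 (22.6 ± 15.5). Dnah6 followed at 15.03, 4.28 and 14.9 (11.4 ± 6.17). Both were low in replicate 2 only. Dnah2 (10.6 ± 0.786) and Dnah10 (9.0 ± 1.41), the chains with a pair of heads, came next and varied less than Dnah12 or Dnah6. Dnah3 had 8.72 ± 3.83, Dnah7a 7.09 ± 3.04, Dnah1 6.54 ± 2.51 and Dnah7b 6.48 ± 3.84 CPM per kb of exon. The levels of Dnah7a and Dnah7b were 14.4 ± 5.76 and 15.2 ± 9.90 when only positions not shared with a near copy were counted, as described further on, which would put both beside Dnah17. In this order each gene overlapped its neighbour, so the order was not settled by these libraries beyond the rank of Dnah8. With 3 libraries against 3, an exact two-sided permutation test cannot give a p under 0.1, and none was run. More binding, more RNA per cell and more cells of a type cannot be told apart in these values.

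In introns the order differed in part. Dnah8 was again highest, at 3.69, 5.06 and 3.12 CPM per kb of intron (3.96 ± 1.00), and Dnah17 followed at 1.25, 3.83 and 1.39 (2.16 ± 1.45). The other 8 genes lay between 0.712 ± 0.124 (Dnah1) and 1.31 ± 0.426 (Dnah2). Dnah12, which ranked 2 in exons, ranked 8 in introns with 0.809 ± 0.154.

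**Figure D1:**
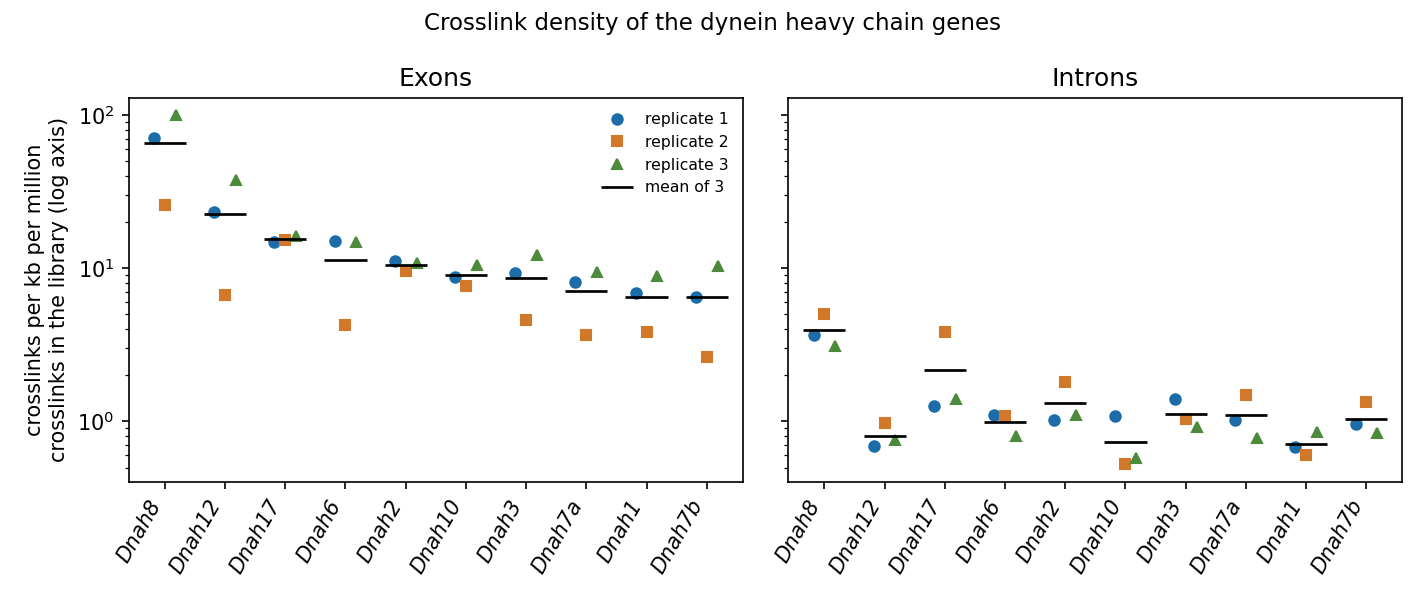
Crosslinks in CPM per kb (log axis) in the exons (left) and introns (right) of the 10 genes, with 1 symbol per library and a bar at the mean of 3. Dnah8 is highest in both panels (means 65.8 and 3.96), and replicate 2 is low for the exons of Dnah8, Dnah12 and Dnah6.

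The first comparison asked whether Tra2β crosslinks favoured the exons of these genes over their introns, as its role in exon recognition makes of interest. All 10 genes had more crosslinks per nt in exons than in introns, and all 10 passed the test against their own introns (adjusted p between 1.46e-14 for Dnah12 and 9.12e-07 for Dnah7b; edgeR quasi-likelihood test, Benjamini-Hochberg over 4256 genes). This was common, because 83.7% of all genes tested were called higher in the same way. The unscaled log2 fold of exon over intron density ran from 2.35 ± 1.29 (Dnah7b) to 4.34 ± 1.47 (Dnah12; SD, n = 3). Here and below, 0.5 crosslinks were added to observed and expected numbers before taking log2.

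Against the median gene of each library Dnah12, Dnah8 and Dnah10 passed the test for a higher exon over intron ratio, 3 of 10 beside 22.0% of all genes tested. None of the 10 fell below the median gene by edgeR, with none at an unadjusted p under 0.05 and none called by DESeq2, beside 9.40% of all genes. The median fitted log2 ratio over the 10 genes was 0.52, beside 0.07 for all genes tested.

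Dnah12, a single-headed inner arm chain, had 98, 50 and 221 exonic and 45, 114 and 69 intronic crosslinks in replicates 1, 2 and 3. Its log2 ratio over the median gene was 2.46, 0.74 and 2.52 (mean 1.91 ± 1.01, SD, n = 3, adjusted p = 0.000484 by edgeR), which placed it above 93.5% of genes. All 3 libraries lay above the median gene, and replicate 2 was the lowest. Dnah8 had 300, 733 and 356 intronic crosslinks beside the exonic ones above. Its log2 ratio was 1.70, 0.34 and 1.91 (1.31 ± 0.849, adjusted p = 0.0083 by edgeR), again with replicate 2 lowest.

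Dnah10, an inner arm chain, behaved differently across libraries. It had 43, 67 and 72 exonic but only 36, 31 and 27 intronic crosslinks, and its log2 ratio was 0.42, 1.80 and 1.05 (1.09 ± 0.694, adjusted p = 0.023 by edgeR), highest in replicate 2. DESeq2 called none of these 3 genes (1 of the 10 had an unadjusted p under 0.05), and without replicate 1 or without replicate 3 only 1 of the 10 genes was called by edgeR.

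The other 7 genes did not pass this test. Dnah6 had 69, 35 and 96 exonic and 73, 128 and 75 intronic crosslinks, and a log2 ratio of 0.75 ± 0.681 (adjusted p = 0.098 by edgeR). Without replicate 2 it was called (fitted log2 1.1, adjusted p = 0.00376). Dnah1 had 31, 31 and 56 exonic and 12, 19 and 21 intronic crosslinks, and Dnah2 had 53, 82 and 73 against 41, 128 and 62. Dnah3 had 40, 35 and 73 against 78, 103 and 72, and Dnah17 had 71, 129 and 108 against 41, 223 and 64. Their log2 ratios were between 0.30 ± 0.278 (Dnah3) and 0.52 ± 0.230 (Dnah1).

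**Figure D2:**
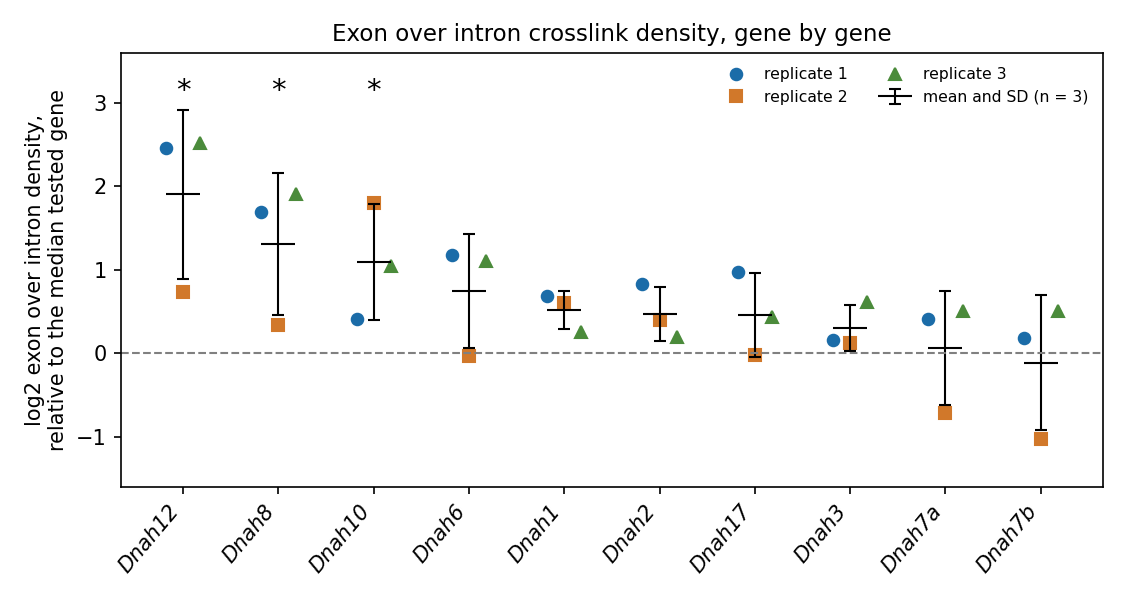
Log2 of exon over intron crosslink density for the 10 genes, relative to the median of 4256 tested genes in the same library (dashed line), with 1 symbol per library and the mean and SD (n = 3) as a bar. Asterisks mark Dnah12, Dnah8 and Dnah10, which passed the edgeR test. Replicate 2 is the lowest library for Dnah12 and Dnah8 and the highest for Dnah10.

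Dnah7a and Dnah7b need separate treatment because they are near copies, at chr1:53436165-53746005 on the minus strand and chr1:46106013-46412706 on the plus strand. Their proteins, of 4024 residues each, were 96.4% identical, whereas the next closest pair, Dnah7a and Dnah12, had 54.9%. Of the 30 nt stretches in their exons, 57.2% (Dnah7a) and 64.8% (Dnah7b) also occurred in another Dnah7 gene, against none in the exons of the other 8 genes. Only 5, 2 and 8 of 35, 28 and 57 exonic crosslinks of Dnah7a were followed by such a shared stretch, and 5, 6 and 9 of 28, 20 and 62 of Dnah7b. Crosslinks were thus few where the copies cannot be told apart. How reads that fit several places were treated is not given in the sources used here, and its part in the levels of both genes was not tested.

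Restricted to positions whose next 30 nt were not shared, a choice made after seeing the data, the exonic level of Dnah7a was 16.3, 7.95 and 18.99 CPM per kb in replicates 1, 2 and 3 and that of Dnah7b 15.2, 5.21 and 25.0, the means given above. On the same positions the log2 ratio over the median gene was 0.51 ± 0.551 for Dnah7a and 0.37 ± 0.921 for Dnah7b, in place of 0.06 ± 0.679 and -0.11 ± 0.811 over all positions. Replicate 2 was below the median gene in both genes with either count.

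The second comparison asked which exons held more or fewer crosslinks than the rest of their own mRNA, so that the amount of the mRNA cancels. All 760 exons of the 10 genes entered, among 15576 exons tested. Of these, 8 were called higher, or 1.05%, beside 5.09% of all exons tested, and 2 were called lower, or 0.263%, beside 2.51%. The median number of crosslinks expected per exon, summed over libraries, was 2.39 for these genes and 3.52 for all exons tested, and 141 of the 760 exons had no crosslink in any library. In only 190 exons did every library have a crosslink, and 80 of those were in Dnah8.

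The 8 exons called higher are each shown by 30 nt that no other 30 nt of the exon exceeded in crosslinks. Where stretches tied, as in Dnah8 exon 29, the one at the lowest coordinate was taken, here and below. The stretches held from 9 of 23 crosslinks in Dnah12 exon 17 to 6 of 7 in Dnah3 exon 26. These stretches are the closest the maps come to a binding site. They are written 5′ to 3′ on the strand of the gene, as DNA of the GRCm39 build, with each GAA in capitals. GAA is the core of the sequences Tra2β prefers.
Dnah8 exon 3, chr17:30854921-30854950, plus strand: atttagaGAAgcaaggGAAaaccgGAAaat
Dnah8 exon 23, chr17:30913000-30913029, plus strand: gtcgacaccaatgataaaGAAgatGAAttt
Dnah8 exon 24, chr17:30914085-30914114, plus strand: aatgtaaggaggtatacgctttcttctcgc
Dnah8 exon 29, chr17:30927317-30927346, plus strand: ctgtcgctacttaaatGAAGAAtataaGAA
Dnah12 exon 17, chr14:26445695-26445724, plus strand: gatctttgatgGAAgaGAAacctGAAGAAg
Dnah3 exon 22, chr7:119646788-119646817, minus strand: gcccagatgccaGAAgagggcaaGAAattt
Dnah3 exon 26, chr7:119638559-119638588, minus strand: gtgtctGAAgccctagttGAAgacaccctt
Dnah7b exon 14, chr1:46167318-46167347, plus strand: attggtGAAgagagcagatgtcatctgtgg

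Of these 8 stretches 7 held GAA at least once and 6 at least 2 times. With the stretches of the top exons that were not called added, 11 of 16 held GAA at least once and 7 at least 2 times. Over all 111066 stretches of 30 nt in the exons of the 10 genes the shares were 51.2% and 16.2%. The stretches were chosen by their crosslinks, and overlapping stretches are not independent, so this is a description. The stretch of Dnah8 exon 24 held none.

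The 4 higher exons of Dnah8 were internal coding exons. Exon 29 (chr17:30927265-30927500, 236 nt) had the most crosslinks of any exon of the family, 14, 4 and 44 in replicates 1, 2 and 3 against 5.76, 3.81 and 11.1 expected. Its log2 fold was 1.07 ± 0.948 (SD, n = 3, adjusted p = 0.00464 by edgeR), and replicate 2 lay close to its expected number. Within the exon, nt 53 to 82 held 8, 3 and 22 of these crosslinks. The nucleotide at position 30927327 held 3, 1 and 7 crosslinks and the next one 1, 1 and 2, and they were the only nucleotides in the 10 genes with a crosslink in every library. Both lie just before the GAAGAA printed above.

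**Figure D3:**
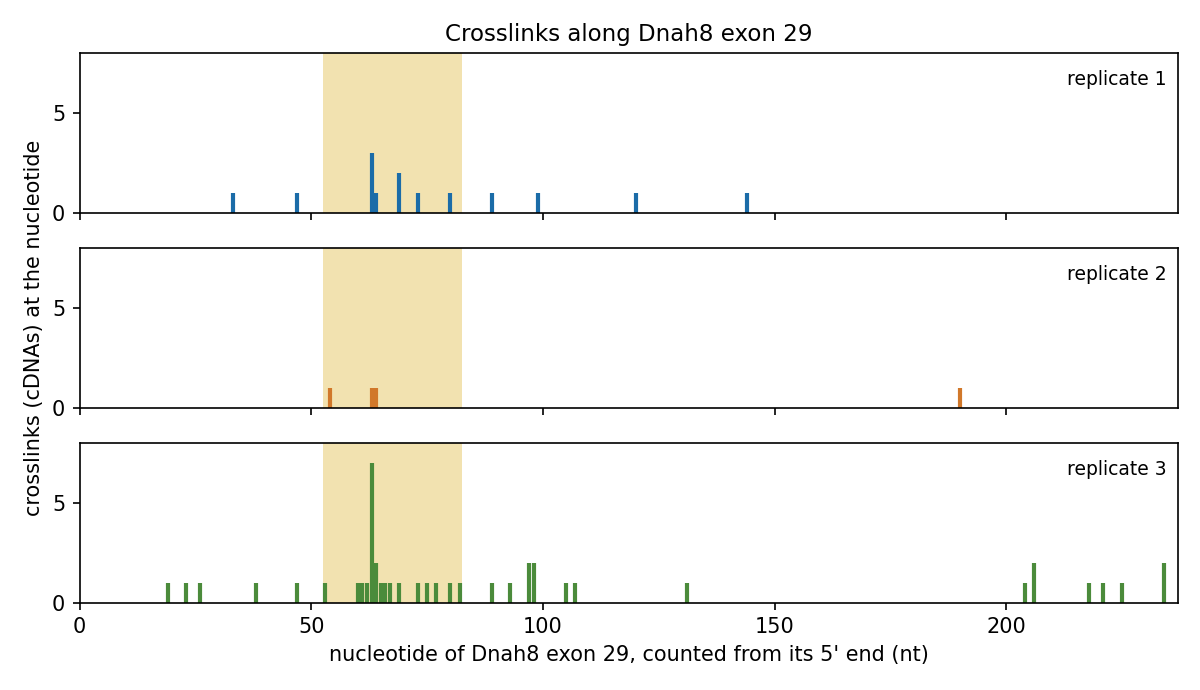
Crosslinks (unique cDNAs) at each nucleotide of Dnah8 exon 29, counted from the 5' end of the exon, in each library. The shaded part is nt 53 to 82, which held 8, 3 and 22 of 14, 4 and 44 crosslinks, and the highest bar of replicates 1 and 3 is at nt 63.

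Exons 23 and 24 of Dnah8 are neighbours. Exon 23 (chr17:30912923-30913035, 113 nt) had 8, 10 and 16 crosslinks against 2.78, 1.77 and 5.45 expected, a log2 fold of 1.69 ± 0.457 (adjusted p = 0.000358 by edgeR). Exon 24 (chr17:30914084-30914190, 107 nt) had 10, 3 and 25 against 2.62, 1.72 and 5.10, a log2 fold of 1.53 ± 0.788 (adjusted p = 0.000182 by edgeR). All libraries were above the expected number in both. Exon 3 (chr17:30854916-30855050, 135 nt) had 14, 5 and 17 against 3.28, 2.16 and 6.51 (log2 fold 1.44 ± 0.458, adjusted p = 0.00263 by edgeR), of which 8, 2 and 10 lay in the 30 nt printed above.

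The 2 exons called lower were the ends of the Dnah8 mRNA. Exon 93, the last (chr17:31093816-31096339, 2524 nt), had 13, 10 and 23 crosslinks against 71.7, 46.3 and 141 expected, a log2 fold of -2.39 ± 0.221 (adjusted p = 2.98e-05 by edgeR). It was also the only exon of the family called by an exact binomial test in all 3 libraries (largest adjusted p 2.05e-07). The shortfall lay in its 3′ UTR, which spans 2236 nt and held 8, 7 and 10 crosslinks where the density of the coding sequence gave 63.8, 40.8 and 126. The coding part of the exon held 5, 3 and 13 against 8.19, 5.28 and 16.1. Exon 1, a UTR exon of 208 nt, had no crosslink in any library against 5.25, 3.40 and 10.3 expected, at most 0.158 of the expected number if 3 counts over the group are taken as the limit.

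How much of the Dnah8 mRNA in testis carries these annotated ends was not tested. The other 9 genes had 3′ UTRs of 46 to 184 nt, too short for a comparison at this depth. Leaving out replicate 1 or replicate 3 ended the edgeR call of every Dnah8 exon above (without replicate 2 only exon 1 was lost), and DESeq2 called no exon of the family (7 had an unadjusted p under 0.05 upward and none downward).

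Along the whole Dnah8 mRNA split in 5 equal lengths, the first pieces from the 5′ end held 28.1% ± 1.27 and 27.0% ± 3.55 of exonic crosslinks (SD, n = 3), and the last held 6.72% ± 1.33. In that last stretch the 3′ UTR is included. The exons from 19 to 30 together had 72, 54 and 165 crosslinks where the remaining exons gave 36.4, 22.8 and 68.9. This stretch was chosen after its values were seen and is given without a test. Across the 93 exons, crosslinks per nt in replicates 1 and 3 had a Spearman rho of 0.435, and replicate 2 had 0.237 and 0.27 with them.

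**Figure D4:**
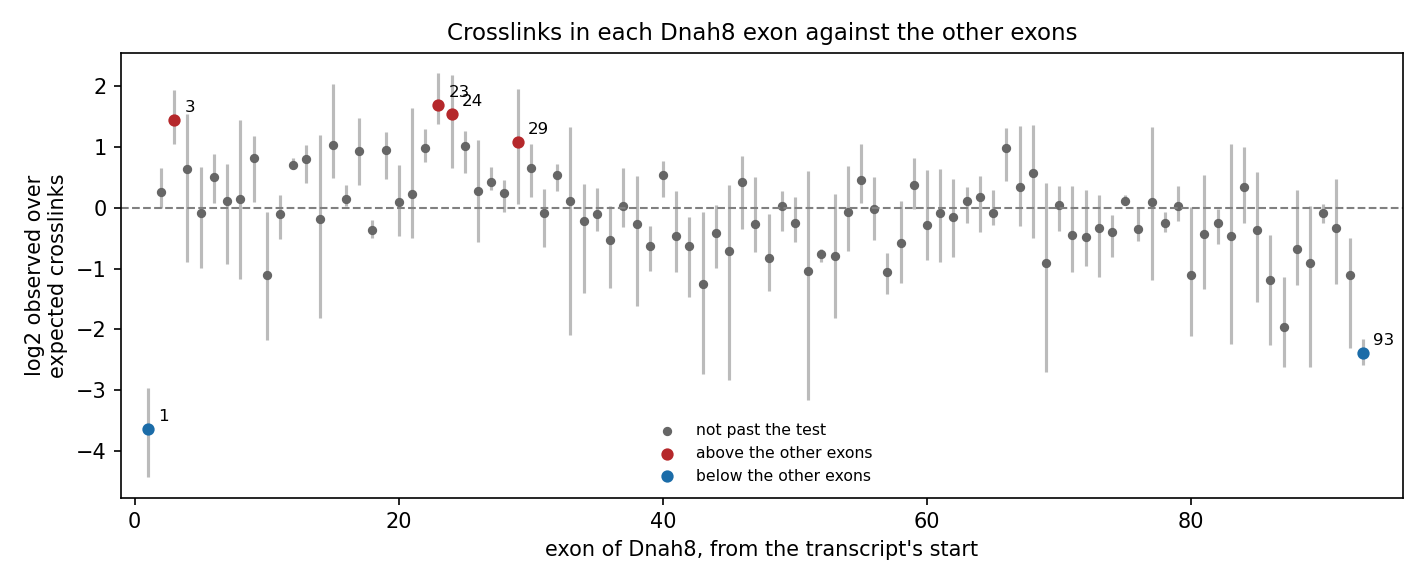
Log2 of observed over expected crosslinks in each of the 93 exons of Dnah8 in order along the transcript, with the mean of 3 libraries as a point and the range of libraries as a line. Red points (exons 3, 23, 24 and 29) and blue points (exons 1 and 93) passed the edgeR test, and most exons from 19 to 30 lie above the dashed line of the expected number.

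Outside Dnah8 single exons had few crosslinks. Dnah12 exon 17 (chr14:26445546-26445789, 244 nt) had 4, 8 and 11 against 1.96, 0.880 and 4.36 expected, a log2 fold of 1.58 ± 0.922 (adjusted p = 0.00214 by edgeR). It was the only exon called without replicate 1. It was not called without replicate 2 or replicate 3. With 6.56 GAA per 100 nt it was the densest in GAA of the 8 exons called higher, of which Dnah3 exon 26 had the fewest, 2.7.

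Dnah3 exon 22 (180 nt) had 4, 1 and 4 crosslinks against 0.544, 0.514 and 1.04 expected (adjusted p = 0.0429 by edgeR). Dnah3 exon 26 (111 nt) had 2, 5 and 0 against 0.352, 0.279 and 0.671 (adjusted p = 0.0271 by edgeR), so that replicate 3 had none. Dnah7b exon 14 (128 nt) had 1, 1 and 5 against 0.289, 0.205 and 0.604 (adjusted p = 0.028 by edgeR). Stretches shared with another Dnah7 gene, where crosslinks were few, made up 35.35% of this exon. The median was 66.13% over the 64 Dnah7b exons not called, from which its expected number came. The part of this difference in the call was not tested. The calls of these 3 exons rest on 7 to 9 crosslinks each and were lost when only internal coding exons were compared. Each also depended on single libraries. By edgeR, Dnah3 exon 22 was lost without replicate 1 or 3 (adjusted p = 0.710 and 0.265), Dnah3 exon 26 without replicate 1 or 2 (0.176 and 0.988, with the fitted log2 at 0.57 in place of 2.01 without replicate 2) and Dnah7b exon 14 without replicate 1 or 3 (0.0716 and 0.999).

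In the other 6 genes no exon was called by edgeR in either direction. The exon with most crosslinks was exon 2 of Dnah1 (4, 1 and 3), exon 15 of Dnah2 (1, 6 and 1), exon 34 of Dnah6 (4, 2 and 8), exon 19 of Dnah7a (7, 3 and 5), exon 31 of Dnah10 (4, 3 and 2) and exon 58 of Dnah17 (2, 6 and 2). Their adjusted p values were between 0.129 and 0.611 by edgeR. In Dnah3 and Dnah7b the top exon by number was a long one and not a called one. Exon 52 of Dnah3 spans 2142 nt and had 7, 3 and 7 crosslinks against 28.0 expected in all, a log2 fold of -0.68 ± 0.580 that did not pass the test (adjusted p = 0.597 by edgeR). Exon 41 of Dnah7b (873 nt) had 3, 2 and 6.

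Pentamers with GAA were then counted on the strand of the RNA, within 30 nt on either side of each exonic crosslink. The first searched was GAAGA. Its shifted forms AGAAG along with the form AAGAA overlap it. The remaining pentamers hold a CpG and were CGAAG along with its shifted form ACGAA, and all 5 were known from earlier results of these libraries. At least 1 of them lay near 44.9% ± 4.74 of the crosslinked exonic positions of the 10 genes (SD, n = 3), against 34.2% of all positions of the same exons. The ratio was 1.25, 1.47 and 1.22 in replicates 1, 2 and 3, above 1 in each and highest in replicate 2. Over all protein-coding genes the ratio was 1.83 ± 0.211, with only 26.4% of exonic positions near such a pentamer. The exons of the 10 genes were thus richer in the pentamers to start with. The positions of all genes included genes without crosslinks, so that ratio also holds differences between genes and is not a like measure.

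By gene the ratio was highest in Dnah10 (1.59 ± 0.457), Dnah12 (1.37 ± 0.129) and Dnah1 (1.35 ± 0.302). It was above 1 in every library in 7 of the 10 genes and in a single library in Dnah7b (0.977 ± 0.185). In Dnah17 it was nearly the same in the 3 libraries, 1.27, 1.297 and 1.29. Over the 93 exons of Dnah8, GAA per 100 nt and observed over expected crosslinks had a Spearman rho of 0.289 with libraries summed, and 0.201, 0.416 and 0.173 in single libraries. The same rho ran from 0.0321 (Dnah7b) to 0.336 (Dnah6) in the other 9 genes, a description over exons that share library and mRNA.

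Within internal exons the crosslinks of replicate 1 were spread nearly evenly over 3 equal pieces (288, 298 and 277 from the 5′ end), and those of replicate 3 leaned slightly to the 5′ end (575, 529 and 491). In replicate 2 they leaned to the 3′ end of the exon, where the last of 3 equal pieces held 48.1% (95% Clopper-Pearson limits 44.4 and 51.8). That piece held 32.1% in replicate 1 (limits 28.99 and 35.3) and 30.8% in replicate 3 (limits 28.5 and 33.1). The same lean was present over all genes, with 40.3% in replicate 2 beside 32.2% and 31.7%. Its part in the results on single exons was not tested.

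The third comparison set paralogous exons side by side. In a protein alignment of the 10 chains, 75 pairs of coding exons had the same borders in 2 genes, and 62 of these pairs were Dnah7a with Dnah7b. In no pair were both exons called higher, in 1 pair 1 exon was called, and in 74 neither was. Both exons had crosslinks in 38 pairs, 1 exon in 25 and neither in 12. Spearman's rho of observed over expected crosslinks was 0.358 over the 75 pairs and 0.293 over the 62 pairs of Dnah7a and Dnah7b. It was 0.588 over the 10 pairs without Dnah7b, and 0.0745 over 2234 pairs that overlapped by at least 0.5 of the length of both exons. In 11 of the 62 pairs of Dnah7a and Dnah7b neither exon had a crosslink. Crosslinks were few where these copies share sequence, and the part of this in the rho was not tested.

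The pair with most crosslinks outside the Dnah7 genes was exon 32 of Dnah2 and exon 33 of Dnah17, of 111 and 108 nt. They had 0, 4 and 2 and 0, 6 and 2 crosslinks in replicates 1, 2 and 3, or 3.61 and 3.32 times the expected number. Neither was called. Exon 25 of Dnah2 and exon 26 of Dnah10 had 0, 2 and 2 and 1, 1 and 2 crosslinks, at 1.68 and 2.01 times the expected number. Among the partners of Dnah8 exon 29 by overlap, all 7 had crosslinks, 30 in sum against 20 expected, and none was called. Of the exon of Dnah12 with most crosslinks, exon 17, 5 of 7 partners had crosslinks, 34 against 38.4 expected.

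Paralogous stretches are printed for the top or called exons of the near copies Dnah7a and Dnah7b, which differ at the place with most crosslinks. They are also printed for Dnah3 exon 22. Its partner keeps the first GAA, lacks the other at its place and has another GAA directly after the first. Capitals again mark GAA, and the partner is aligned through the protein.
Dnah7a exon 19, chr1:53657099-53657128, minus strand: ccatttttagacagatttgGAAgcatcagt
Dnah7b exon 18, chr1:46179107-46179136, plus strand: ccgtttttagacagatttGAAggcattagt
Dnah7b exon 14, chr1:46167318-46167347, plus strand: attggtGAAgagagcagatgtcatctgtgg
Dnah7a exon 15, chr1:53669402-53669431, minus strand: tttggtGAAgcgagcagatgtcatctgtgg
Dnah7b exon 41, chr1:46272751-46272780, plus strand: ttaaaaacttggattttaatcaggatggca
Dnah7a exon 42, chr1:53543394-53543423, minus strand: ttaaaaacttggattttaatcatgatggca
Dnah3 exon 22, chr7:119646788-119646817, minus strand: gcccagatgccaGAAgagggcaaGAAattt
Dnah7b exon 19, chr1:46181247-46181276, plus strand: tctcaaatgccaGAAGAAggcagacgattc
The stretch of Dnah7a exon 19 held 1, 2 and 2 crosslinks and that of Dnah7b exon 18 none in any library. The stretch of Dnah7b exon 14 held 1, 1 and 3 and that of Dnah7a exon 15 none. The stretch of Dnah7b exon 41 held 1, 0 and 3 and that of Dnah7a exon 42 held 0, 0 and 1, the only partner of these with a crosslink. The stretch of Dnah3 exon 22 held 3, 0 and 2 and that of Dnah7b exon 19 none. The stretches were picked for the crosslinks of the first gene, and a count of 0 allows up to 3 crosslinks, so the pairs could not be told apart at this depth.

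The fourth comparison concerned introns. The introns of 9 genes entered, 673 of 750, since the 77 introns of Dnah1 together had fewer than 20 crosslinks in replicates 1 and 2. Among them 25 were called higher, or 3.72%, beside 5.62% of 27359 introns tested, and 5 were called lower, or 0.743%, beside 2.85%. Of the 25, 8 were in Dnah8, 4 each in Dnah7a and Dnah7b, 2 each in Dnah2, Dnah3 and Dnah6, and 1 each in Dnah10, Dnah12 and Dnah17. The number was 12 without replicate 1, 16 without replicate 2 and 14 without replicate 3.

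Intron 51 of Dnah7b (chr1:46330051-46337407, 7357 nt) stood out. It had 15, 31 and 18 crosslinks in replicates 1, 2 and 3 against 10.2 expected in all, a log2 fold of 2.50 ± 0.085 (SD, n = 3, adjusted p = 2.33e-17 by edgeR). The libraries gave nearly the same fold, and it was the only intron of the family called by the exact binomial test in all 3 libraries (largest adjusted p 2.26e-06). Its 30 nt with most crosslinks held 1, 5 and 0, or 6 of its 64 crosslinks. The stretch is shown because no other printed stretch is purine throughout, so it was picked by its sequence. Of the matching stretches in the top introns of the 10 genes, 7 held GAA at least once and 5 at least 2 times. Those of Dnah8 intron 85, Dnah12 intron 20 and Dnah17 intron 44 held none.
Dnah7b intron 51, chr1:46332793-46332822, plus strand: aaagggGAAagGAAaaaGAAaggGAAaggg
Of the 30 nt stretches of this intron 36.9% recur in another Dnah7 gene.

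Intron 48 of the same gene (8201 nt) had 8, 35 and 9 against 11.8 expected (log2 fold 1.75 ± 0.609, adjusted p = 1.30e-08 by edgeR). Intron 15 of Dnah3 (7712 nt) had 13, 15 and 9 against 10.997 (1.61 ± 0.236, adjusted p = 2.16e-05 by edgeR). Intron 70 of Dnah12 (1648 nt) had 2, 5 and 5 against 1.93 (1.92 ± 0.431, adjusted p = 0.000404 by edgeR). These 3 introns, intron 51 of Dnah7b and intron 21 of Dnah8 stayed called by edgeR in every alternative in which they were tested by it.

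In Dnah8, 5 of the 8 higher introns lay between exons 18 and 31, with introns 11 and 14 before them and intron 85 near the 3′ end. Intron 21 (3678 nt) had 18, 37 and 11 crosslinks against 21.2 expected (log2 fold 1.501 ± 0.502, adjusted p = 2.13e-06 by edgeR), and intron 22 (3632 nt) had 12, 27 and 14 against 21.1 (1.28 ± 0.036, adjusted p = 0.000625 by edgeR). Intron 22 ends where exon 23 begins, one of the exons called higher. Introns 18 (14, 53 and 13), 26 (6, 16 and 16) and 30 (3, 16 and 10) were called as well. Of these only intron 21 stayed called without each of the libraries. By edgeR, intron 22 was lost without replicate 1 (adjusted p = 0.0589), intron 18 without replicate 1 or 2 (0.130 and 0.654), intron 26 without replicate 3 (0.479) and intron 30 without replicate 2 or 3 (0.0732 and 0.147). The introns from 18 to 30, a stretch chosen after its values were seen, together had 79, 209 and 95 crosslinks where the other introns gave 36.8, 87.3 and 43.5, or 2.14, 2.39 and 2.18 times as many. The exons of the same stretch were at 1.98, 2.37 and 2.39 times the rest. Introns 3 (5, 3 and 4 against 43.7 expected) and 87 (4, 9 and 4 against 41.7) were called lower.

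Several other introns rested on replicate 2. Intron 44 of Dnah17 (4117 nt) had 1, 53 and 7 crosslinks against 12.3 expected (adjusted p = 1.66e-08 by edgeR), below its expected number in replicate 1. Intron 20 of Dnah7a (21146 nt) had 15, 78 and 12 against 29.96 (adjusted p = 2.35e-07), intron 39 of Dnah2 had 5, 30 and 9 against 13.3 (adjusted p = 6.19e-05) and intron 11 of Dnah8 had 13, 48 and 8 against 22.5 (adjusted p = 2.05e-05), all by edgeR. Without replicate 2 none of these 4 was called, with an adjusted p by edgeR of 0.834 for Dnah17, 0.253 for Dnah7a, 0.236 for Dnah2 and 0.239 for Dnah8. Intron 11 of Dnah8 was also lost when exons of other genes were left out (adjusted p = 0.202 by edgeR). In replicates 1 and 3 alone their folds were 1.78, 1.83, 2.20 and 1.94. Intron 14 of Dnah8 (5, 27 and 2 against 13.2 expected) had a fitted log2 of 1.13 with all libraries and 0.09 without replicate 2 (adjusted p = 0.983 by edgeR). Without replicate 2, intron 41 of Dnah7a (9, 39 and 7 against 22.2) had 0.60 in place of 1.13 (adjusted p = 0.828 by edgeR) and intron 18 of Dnah8 had 0.60 in place of 0.99.

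**Figure D5:**
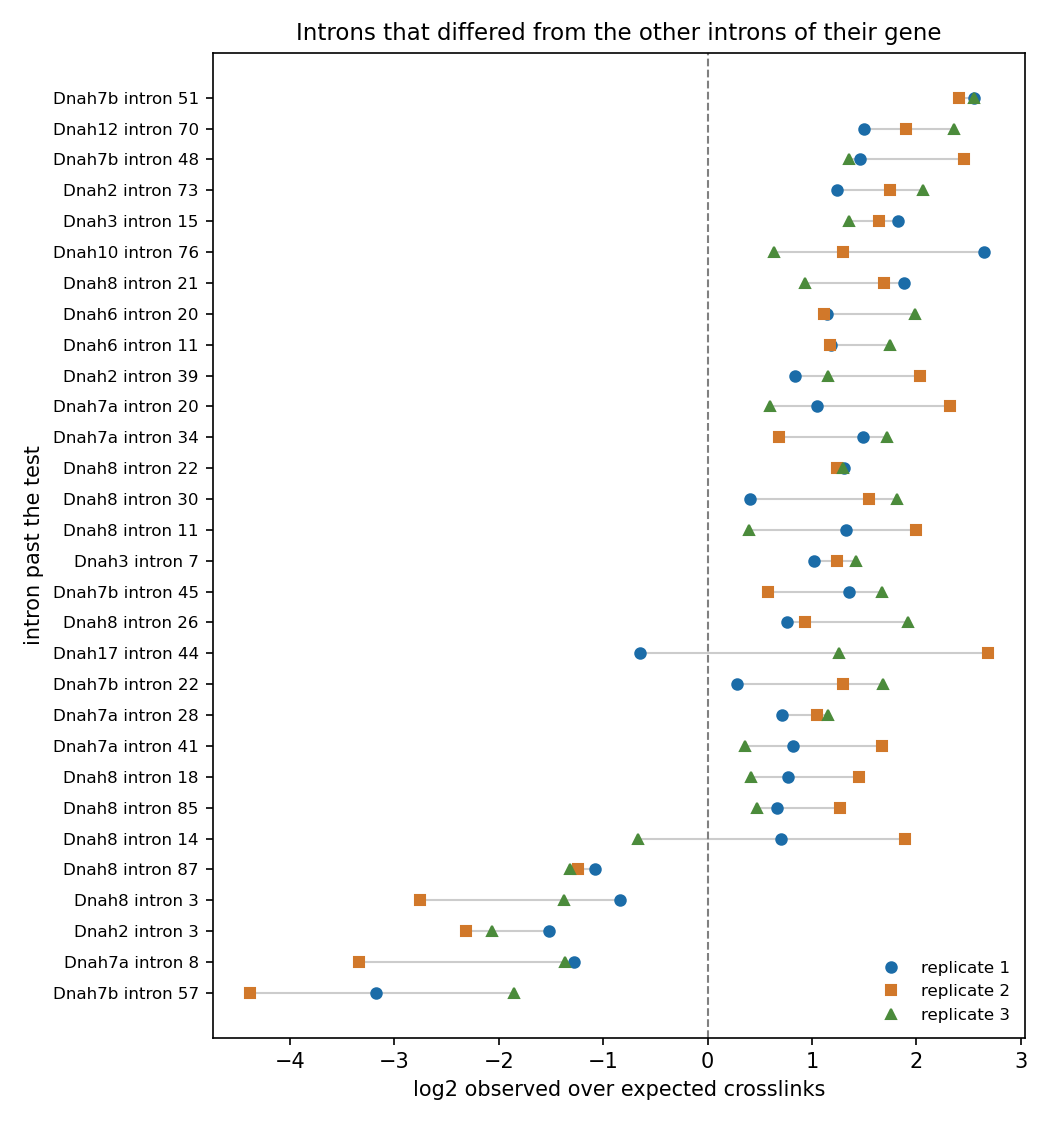
Log2 of observed over expected crosslinks in each library for the 25 introns called higher and the 5 called lower, sorted by their mean. The 3 symbols of Dnah7b intron 51 nearly coincide, whereas replicate 2 lies far to the right of the others in Dnah17 intron 44 and Dnah7a intron 20.

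The remaining calls were as follows. Intron 76 of Dnah10 had 6, 2 and 1 against 1.52 expected and intron 73 of Dnah2 had 2, 7 and 5 against 3.11. In Dnah6, intron 11 had 6, 10 and 9 against 8.88 and intron 20 had 2, 3 and 4 against 2.38. Intron 85 of Dnah8 had the most crosslinks of any intron called (23, 82 and 24 against 65.3 expected). In Dnah7a, intron 28 had 7, 22 and 10 against 18.7 and intron 34 had 4, 5 and 5 against 5.21. In Dnah7b, intron 22 had 2, 10 and 7 against 7.17 and intron 45 had 6, 8 and 9 against 9.69, and intron 7 of Dnah3 had 4, 6 and 5 against 5.53. Each intron listed up to here in this paragraph was lost by edgeR without at least 1 library. The introns with most crosslinks in Dnah1 (intron 6, with 3, 1 and 2), Dnah6 (intron 4, with 5, 18 and 5) and Dnah12 (intron 20, with 4, 18 and 4) were not among those called. Introns called lower outside Dnah8 were intron 57 of Dnah7b (0, 0 and 1 against 18.8), intron 8 of Dnah7a (2, 1 and 2 against 26.1) and intron 3 of Dnah2 (1, 2 and 1 against 21.5).

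Taken over the family, intronic crosslinks were not gathered at either splice site in replicates 1 and 2. Over introns of at least 300 nt, the last 100 nt held 30, 52 and 57 crosslinks and the first 100 nt held 20, 58 and 33 in replicates 1, 2 and 3, where each makes up 3.72% of the intron length. Only in replicate 3 was the share before the 3′ splice site, 5.86%, above that share of length. Annotated exons of the 10 genes outside the canonical transcripts held few crosslinks, at most 3 in any of them over the 3 libraries.

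Other dynein heavy chains are listed for comparison, and the list was chosen with earlier results of these libraries known. Dnah14 (118, 125 and 184 exonic crosslinks) was as high as Dnah12, at 22.2 ± 6.67 CPM per kb of exon. Dync1h1, the motor of cytoplasmic transport, had 17.5 ± 11.8 and Dync2h1, the motor of transport inside cilia, 20.7 ± 12.8. Both passed the test against the median gene (log2 2.42 ± 0.880 with adjusted p = 4.37e-05 and 1.31 ± 0.690 with adjusted p = 0.0078 by edgeR). Dnhd1 had 14.9 ± 2.75 and Dnah7c, the remaining near copy of Dnah7a, 5.63 ± 3.39.

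Dnah5, Dnah9 and Dnah11, outer arm chains of cilia in the airway, had almost no exonic crosslinks, 2, 3 and 4, 2, 4 and 4, and 1, 0 and 0 in replicates 1, 2 and 3. The outer arm chains of the sperm tail, Dnah8 and Dnah17, exceeded them in every library. Of 15 other arm subunits 8 were tested, 4 lay above and 1 below the median gene, and the median fitted log2 was 0.98. Of 21 docking and assembly genes 14 were tested, 7 lay above and none below by edgeR, and the median was 1.21. The median was 0.52 for the 10 heavy chains and 0.07 for all genes. Over all genes tested, 22.0% were called above the median gene and 9.40% below it by edgeR.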

How the data were processed

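Tra2β iCLIP was performed on 3 testis samples of adult wild type mice, described in the study as biological replicates. The deposited files hold, per crosslinked nucleotide and strand, the counts of unique cDNAs made by the authors with the iMAPS pipeline on the mm39 build, and the submitters' processing notes name Trim Galore 0.6.7, Bowtie 1.3.1, STAR 2.7.9a and UMI-tools 1.1.2. How reads with several matching places were treated is not given in the sources used here. Totals were 348033, 619571 and 488719 crosslinks at 335153, 587353 and 456521 positions, so that a limit of 3 counts equals 8.62, 4.84 and 6.14 CPM. Molecular identifiers were used, and intervals cover counting error only.

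Crosslinks were counted on the gene's strand in exons and introns of the canonical transcripts of GENCODE mouse release 39 (Python 3.11.15). The number expected in exons came from the introns of the same gene, in an exon from the other exons, and in an intron from the other introns. Genes entered with at least 10 crosslinks in each library, and exons and introns where the gene had at least 20 exonic or intronic ones. The quasi-likelihood F-test of edgeR 4.0.16 (R 4.3.3) compared observed with expected numbers over the 3 libraries, with Benjamini-Hochberg adjustment over all features and a threshold of 0.05. Its intercept test was computed from the fitted deviances. The step was tested on simulated data, where it recovered 46 of 50 genes raised by 2 on the log2 scale in the test against the median gene, 17 of 50 exons and 18 of 50 introns. Of features raised by 1 it recovered 8 of 50 genes, 2 of 50 exons and 0 of 50 introns, and of those lowered by 2 it recovered 11 of 50 genes, 0 of 50 exons and 4 of 50 introns. DESeq2 1.42.0, an exact binomial test (scipy 1.17.1), other filters and leaving out each library were alternatives. Proteins translated from the transcripts were aligned with MAFFT 7.526 to pair exons.

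Named were all 10 genes, the exon and intron of each with most crosslinks, every exon and intron called, paralogous exons of the top exons, and the other dynein heavy chains. The genes and lists were chosen with earlier results of these data known.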

Additional observations from a re-analysis of the deposited data

Results flagged for a closer look

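A signal lay on the strand opposite to Dnah3, which the comparisons above did not use. Antisense crosslinks over Dnah3 that fell in no annotated gene of that strand numbered 11, 11 and 7 in replicates 1, 2 and 3, above the limit of 3 that a count of 0 allows. They were part of 42, 44 and 31 antisense crosslinks over the gene, whose other members lay in opposite genes such as Lyrm1. The source of these crosslinks was not tested.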

How the results depend on the processing

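All 10 genes kept more crosslinks per nt in exons than in their own introns, past the threshold, in every alternative run. Against the median gene 3 were higher by edgeR, 0 by DESeq2 (which called 272 of 4256 genes) and 10 with no centring of the libraries, and between 1 and 3 when a replicate was left out. Dnah12 lost its call only under DESeq2 (adjusted p = 0.053), Dnah8 under DESeq2 (0.408), with exons of any transcript (0.054) and without replicate 1 or 3 (0.0567 and 0.197), and Dnah10 under DESeq2 (0.681) and without any of the replicates (0.064 to 0.122). Dnah6 became called with exons of any transcript (1.12), with a minimum of 1 crosslink (1.40) and without replicate 2 (1.099). The fitted log2 ratios of Dnah7a and Dnah7b, never called, changed sign, Dnah7a to -0.043 with a minimum of 20 crosslinks and -0.028 without replicate 3, and Dnah7b to -0.076 with exons of any transcript, -0.18 with a minimum of 20 crosslinks and -0.28 without replicate 3 (up to 0.32 without replicate 2). The cause was not tested.

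Exons called higher numbered 8 by edgeR, 5 among internal coding exons, 5 with a minimum of 50 crosslinks, 4 among exons with at least 1 expected crosslink, 0 by DESeq2 (7 at an unadjusted p under 0.05), 0 by the exact binomial test, and 1 to 15 when a replicate was left out. Exons called lower numbered 2, with 0 among internal coding exons, which leave out both ends, 0 by DESeq2 (0 at an unadjusted p under 0.05), 1 by the exact binomial test, and 0 to 1 when a replicate was left out. Introns called higher numbered 25, with 1 by the exact binomial test and 12 to 16 when a replicate was left out, and those called lower 5, with 0 by the exact binomial test and 0 to 1. The rho of paralogous exons, 0.358, was 0.0745 with the looser overlap, 0.588 without Dnah7b, and 0.264 to 0.321 when a replicate was left out. The pentamer ratio, 1.31, stayed between 1.24 and 1.44. Of the values for single genes, exons and introns, 237 kept their direction and side of the threshold, 99 kept their direction but lost the call, 3 gained one and 5 changed sign. A further 32, for replicates 1 and 3 alone or for unshared Dnah7 positions, have no test. No paired analysis was possible because there is 1 group. Depth limits the exons most, with a median of 2.39 crosslinks expected per exon over the 3 libraries.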
